A study of Mus musculus with 48 samples.

Results

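Serotonin receptors are the proteins through which cells sense serotonin, and the transcripts of 10 receptor genes were followed here on expression arrays of the mouse medial prefrontal cortex (mPFC) and blood. The members were all array probes whose gene name was Htr1a, Htr1b, Htr1f, Htr2a, Htr2c, Htr3a, Htr4, Htr5a, Htr6 or Htr7, and the rule found 15 probes of 10 genes among the 55681 probes and 34844 gene names of the array. Female C57BL/6J mice, 17 weeks old, were either sham-operated or bilaterally ovariectomised (OVX) and were then left without stressors, apart from weekly handling, or exposed to chronic ultra-mild stress (CUMS), so that the groups were control, CUMS, OVX and OVX+CUMS with 6 mice each. mPFC and blood were taken as coming from the same 24 mice, matched by the group and number in the sample titles. Each sample was hybridised to its own single-colour array, 48 in all. The series used this design as a mouse model of depression after the loss of ovarian hormones. All groups were of 1 strain and 1 sex, ovariectomy removes every ovarian hormone at once, and blood RNA was taken from pelleted cells.

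Serotonin released from raphe axons acts in the prefrontal cortex on several receptor classes. The Htr1 and Htr5 receptors couple to inhibitory G proteins, the Htr2 receptors couple to Gq and phospholipase C, Htr4, Htr6 and Htr7 couple to Gs and adenylyl cyclase, and Htr3a forms a cation channel that serotonin opens directly. Cortical pyramidal neurons are known for Htr1a and Htr2a, and a class of GABA interneurons outside the Pvalb and Sst classes is known for Htr3a.

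The array reads most of these genes near the 3′ end of the transcript, and the probe decides what can be said of a gene. Of the 15 probes, 13 carried a transcript of the RefSeq gene table, and all 13 had the same symbol there. Shown here are some of the probes lying within the coding part, chosen because they were dim or split from a second probe of their gene. Each is 60 bases, printed 5′ to 3′ on the transcript strand with mm9 positions. The Htr4 probe A_52_P581594, dim as well, is not shown. It starts at base 703 of its transcript, and its 60 bases span 9266 bases of the genome. Capitals mark the stop codon in the second Htr2c probe and, in the Htr6 probe, the stretch that encodes the NPxxY motif of the last membrane helix of this receptor class.
Htr1b A_52_P103998, chr9:81525015-81525074, minus strand: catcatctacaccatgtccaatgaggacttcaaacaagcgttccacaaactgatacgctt
Htr2c A_55_P2068461, chrX:143604149-143604208, plus strand: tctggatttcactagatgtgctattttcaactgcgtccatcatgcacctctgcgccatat
Htr2c A_55_P2158921, chrX:143629079-143629138, plus strand: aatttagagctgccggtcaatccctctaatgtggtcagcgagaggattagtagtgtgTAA
Htr6 A_51_P183497, chr4:138617683-138617742, minus strand: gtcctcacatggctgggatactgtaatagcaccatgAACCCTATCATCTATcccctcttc

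One more Htr2c probe, A_55_P1977503 at chrX:143631655-143631714, starts at base 4584 of the transcript, while the probe that ends in the stop codon starts at base 2008, so it reads the 3′ untranslated part. The other Htr6 probe, A_55_P2028350 at chr4:138630767-138630826 on the minus strand, was designed on another transcript, which is not in the RefSeq gene table. Its sequence holds a stop codon in all 3 reading frames. Htr3a was read by 1 probe, A_55_P2093336 at chr9:48707773-48707832 on the minus strand. No gene annotation of mm9 was used here to place these probes in exons.

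In mPFC, 10 probes of 9 genes were detected on all 24 arrays, detection meaning that the scanner software called the spot well above background on every array and that the signal passed 50 on at least 2. The pyramidal neuron gene Slc17a7 had a mean signal of 5970 in mPFC and 4.29 in blood, as the tissue labels say. Htr1b, which acts at nerve terminals and whose mRNA therefore lies in the projecting neurons, was well above background on 19 of 24 mPFC arrays. The stop-codon probe of Htr2c reached that level on 4 arrays, and the second Htr7 probe, A_55_P2177309, on 1. The second Htr4 probe, A_52_P581594, reached it on none. In mPFC these values describe tissue pieces, in which fewer cells of a type and less RNA per cell cannot be told apart.

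The probes of Htr2c differed in what they showed of the same gene. The 3′ untranslated probe had processed signals from 1725 to 3496 over the 24 mPFC arrays. Its coding partner A_55_P2068461 had signals from 23.8 to 61.1, and the stop-codon probe had a mean of 14.5. Levels are not set against each other between probes, because each binds with its own strength and labelling from the poly(A) tail favours the 3′ end.

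In blood, 2 of the 15 probes were detected on all 24 arrays, the 3′ untranslated probe of Htr2c and the second Htr6 probe. The Htr2c probe had a mean signal of 2790 in mPFC and 55 in blood, and after the shift to each array's 75th percentile it was 9.73-fold higher in mPFC, in 24 of 24 mice. The second Htr6 probe ran the other way, with a mean signal of 40.1 in mPFC and 88.3 in blood, and was 12.1-fold higher in blood in 24 of 24 mice. The coding Htr6 probe with the NPxxY stretch did not follow it: its normalized level in blood was 1.22-fold that in mPFC, higher in 15 of 24 mice, and 20 of 24 blood arrays had it well above background. These tissue contrasts are descriptions without a test, since tissues differed in RNA kit and in array brightness.

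Some receptors that were bright in mPFC were not called well above background on any blood array. Htr2a, the Gq-coupled receptor of pyramidal neurons, had a mean signal of 776 in mPFC and was well above background on no blood array, which put it at least 13.4-fold higher in mPFC. Htr7, a Gs-coupled receptor, had 529 in mPFC and was also not well above background on any blood array, at least 9.01-fold. By the looser flag of a positive and significant signal, Htr2a passed on 5 and Htr7 on 6 of 24 blood arrays. The bounds set each blood array at the higher of the probe's own value and the lowest signal called well above background there. For Htr5a the same bound fell under 1, so no fold is given.

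**Figure D1:**
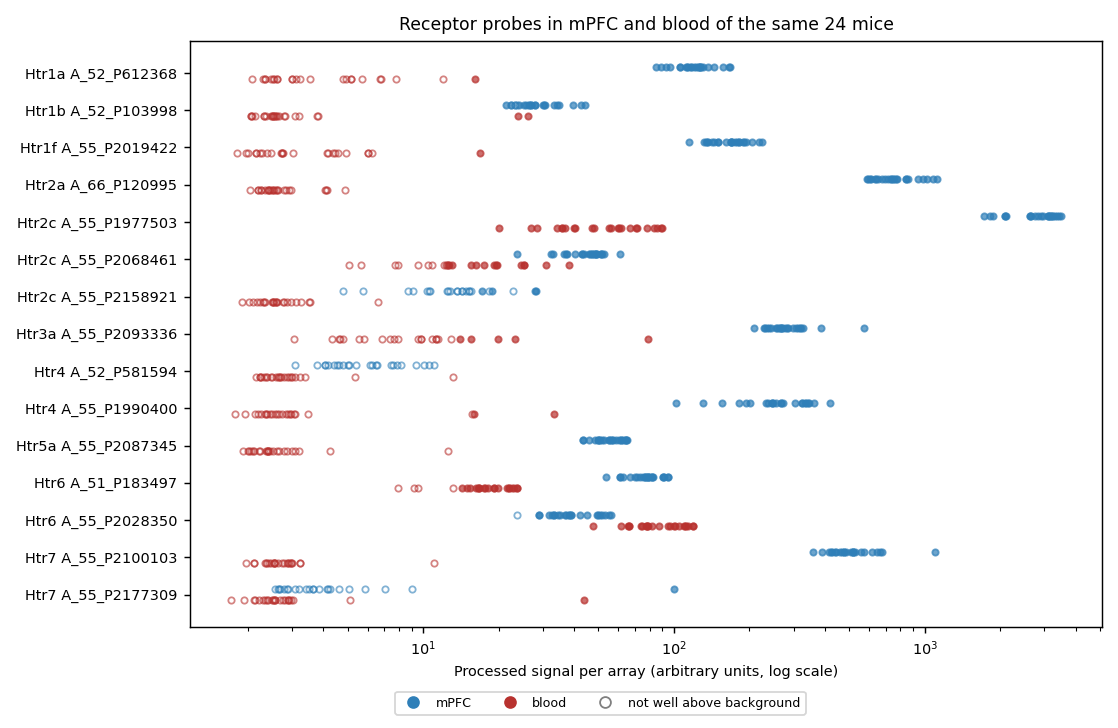
Processed signal of the 15 receptor probes on a log axis, with 1 point per array for mPFC (blue) and blood (red) of 24 mice; open points were not called well above background and can lie under filled ones. Most blood points are open, while the Htr2c probe A_55_P1977503 and the Htr6 probe A_55_P2028350 are filled on all 24 blood arrays, the latter with signals in blood above those in mPFC on average.

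Of all receptor probes in mPFC, Htr3a, the subunit of the serotonin-gated channel, was the one called for ovariectomy. Its normalized level, log2 signal minus the array's 75th percentile, was lowest at -1.42, median -1.39 and highest -1.23 in the 6 control mice. In CUMS mice it was -1.39, -1.19 and -1.04. In OVX mice it was -1.30, -1.10 and -0.14, and in OVX+CUMS mice -1.45, -1.01 and -0.60. The control mice lay in a narrow band, and the other groups spread upward from it. OVX replicate 3, at -0.14, stood well above every other array, and OVX+CUMS replicate 3, at -1.45, lay below all controls.

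Htr3a rose in OVX mice by 0.41 ± 0.15 (log2 difference ± SE, 6 against 6; limma adjusted p = 0.036) over the control mice, and 5 of 6 OVX mice were above all controls (exact permutation p = 0.00433, two-sided, smallest possible 0.00216). Averaged over mice with and without stress, the OVX effect was 0.30 ± 0.10 with an adjusted p of 0.030. OVX+CUMS minus control was 0.35 ± 0.15, with 5 of 6 mice above all controls, and its adjusted p of 0.070 missed the threshold of 0.05. CUMS minus control was 0.15 ± 0.15 (adjusted p = 0.50). The interaction of OVX and CUMS was -0.21 ± 0.21 (adjusted p = 0.56), so that no difference of the OVX response between stressed and unstressed mice was detectable. Thus 1 of 10 receptor probes was called for the OVX effect, where 30.9% of all 28358 detected probes were called. A share of 1 in 10 lies under that background, so it says nothing particular about the receptors. For OVX minus control 33.5% of all probes were called, for OVX+CUMS minus control 33.4% and for CUMS minus control 16.9%.

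The Htr3a call depended on the arrays, the scaling and the slide. With arrays shifted by their spike-in signals in place of the percentile, the OVX effect was 0.17 (adjusted p = 0.85). Without OVX replicate 3, OVX minus control was 0.25 with an adjusted p of 0.084, while the OVX effect over both strata was 0.22 with an adjusted p of 0.027. The OVX effect lost its call without CUMS replicate 1 and without OVX+CUMS replicate 5. The OVX minus control call was also lost without control replicate 1, 2, 3, 5 or 6 and without OVX replicate 1. Slide 1 held the 6 control mice and 2 CUMS mice, slide 2 held 4 CUMS and 4 OVX mice, and slide 3 held 2 OVX and 6 OVX+CUMS mice, so no slide held both control and OVX mice. With slide as a fixed block the OVX effect was 0.41 with an adjusted p of 0.81, and no probe of all 28358 was called in that fit, where 1880 had an unadjusted p under 0.05. Within slide 2, CUMS minus OVX was -0.31 ± 0.22 (adjusted p = 0.52), and -0.069 (adjusted p = 0.77) without OVX replicate 3.

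Markers of other cells are given beside the Htr3a values. Among 9 detected markers of the Htr3a class of interneurons, a list that leaves out Htr3a itself, 0 were called for the OVX effect in limma, the neuropeptide gene Vip being at -0.16 ± 0.08 (adjusted p = 0.15). As a log2 sum, the level of that list ran from 8.64 to 8.83 in control, from 8.73 to 8.84 in CUMS, from 8.62 to 8.83 in OVX and from 8.78 to 8.89 in OVX+CUMS mice. Most of that sum was Cck, with a mean mPFC signal of 230000 beside 2510 for Vip, 119 for Calb2 and 115 for Reln. With each gene weighted equally, the mean log2 level of the list was 1.29 in control, 1.31 in CUMS, 1.30 in OVX and 1.30 in OVX+CUMS mice. Of 8 microglia markers 7 were higher with OVX, among them Cx3cr1 by 0.22, where 19.1% of all probes were called higher, and their summed level ran from 6.14 to 6.24 in control, from 6.13 to 6.47 in CUMS, from 6.30 to 6.49 in OVX and from 6.26 to 6.56 in OVX+CUMS mice. With the spike-in shift none of the 8 was called, and with slide as a fixed block no mPFC probe was. Their part in the Htr3a result was not tested.

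**Figure D2:**
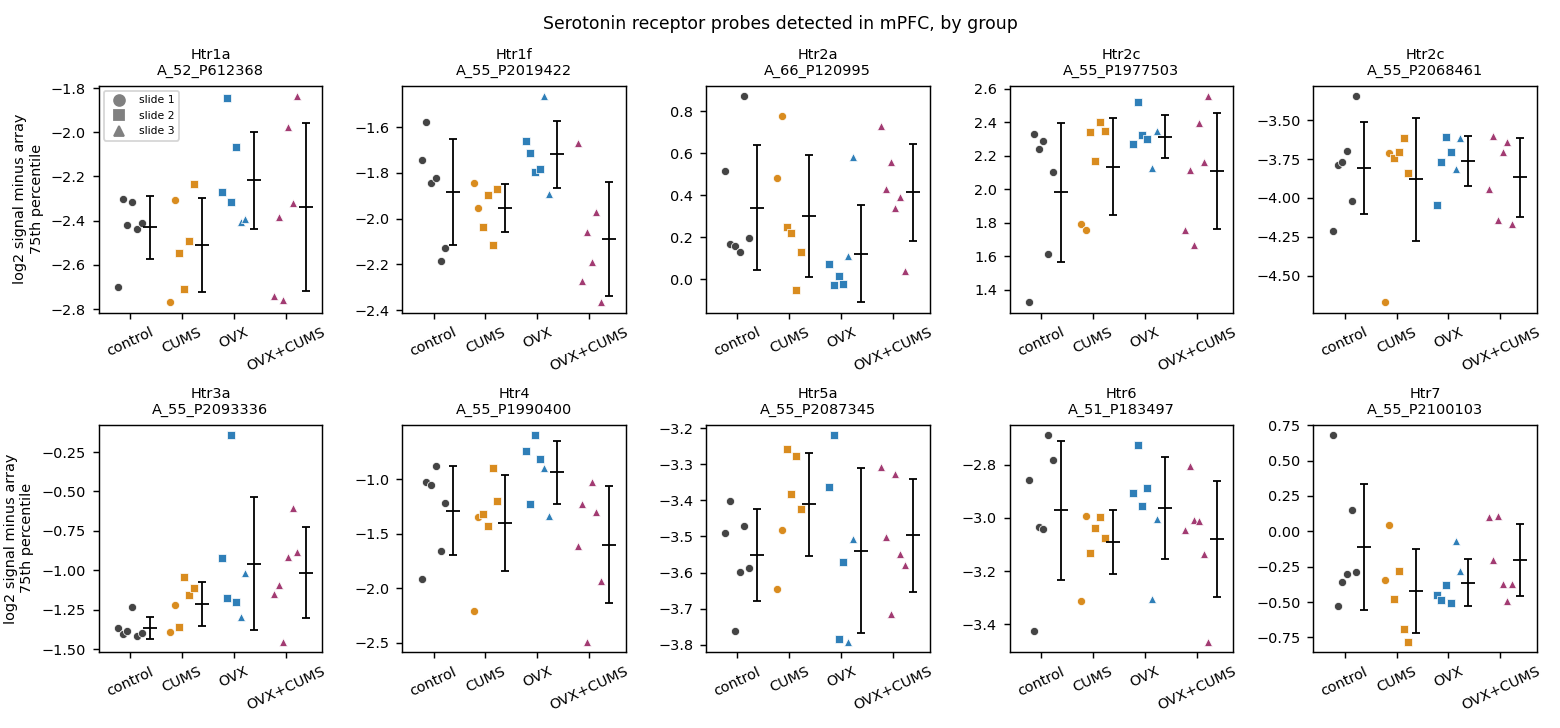
Normalized level (log2 signal minus the array's 75th percentile) of the 10 receptor probes detected in mPFC, 1 point per mouse, by group and with the slide as the symbol; the black bar is the group mean ± SD of 6 mice. Htr3a sits between -1.42 and -1.23 in control mice and reaches -0.14 in OVX mice, and the groups overlap for every probe.

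The remaining receptors of mPFC gave no call in any of the comparisons with control or for the main effects and the interaction. Over the 9 other probes the 95% intervals ran from -0.27 to 0.42 for the OVX effect, from -0.73 to 0.34 for the CUMS effect and from -1.24 to 0.97 for the interaction. They are intervals of single probes under the percentile shift, in a fit without slide, and do not cover error from slide or scaling. Over the alternative settings the OVX effect of the coding Htr2c probe A_55_P2068461 ran from -0.33 to 0.09. The median over the 9 detected genes was 0.015 for OVX and -0.078 for CUMS, beside 0.044 and 0.011 over all detected probes. For CUMS 4.19% of all probes were called and for the interaction 4.49%, against 0 of 10 receptor probes in limma for each. At an unadjusted p under 0.05 there were 2 receptor probes for CUMS, those of Htr4 and Htr1f, where 23.2% of all probes were below it, and 0 for the interaction, where 23.4% were.

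Among the receptors coupled to inhibitory G proteins, Htr1f, a receptor of the Htr1 group known as a target of migraine drugs, had the smallest p for stress. Its level was lowest at -2.19, median -1.83 and highest -1.58 in control mice, and -2.11, -1.92 and -1.84 in CUMS mice. In OVX mice it was -1.89, -1.75 and -1.46, and in OVX+CUMS mice -2.37, -2.12 and -1.67. In OVX+CUMS mice all arrays except replicate 1 were at -1.97 or below. The CUMS effect was -0.22 ± 0.08 with an adjusted p of 0.090, and it became -0.26 (adjusted p = 0.047) without OVX+CUMS replicate 1.

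Htr1a, the inhibitory receptor that also serves as autoreceptor on raphe neurons, had its lowest, median and highest levels at -2.70, -2.42 and -2.30 in control mice and at -2.41, -2.29 and -1.84 in OVX mice. The OVX effect was 0.19 ± 0.10 (adjusted p = 0.15). Htr5a, for which fewer functions are known, had group means from -3.55 in control to -3.41 in CUMS mice, and its CUMS effect was 0.09 ± 0.07 (adjusted p = 0.43). Htr1b, below the detection rule, had group means from -4.58 in control to -4.24 in CUMS mice and stayed outside the test of detected probes.

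Of the Gq-coupled pair, the 3′ untranslated probe of Htr2c, whose receptor is also known from choroid plexus and whose mRNA is edited, was lowest at 1.32, median 2.17 and highest 2.33 in control mice. In OVX mice the values were 2.12, 2.31 and 2.52, a tight group near the top of the control range. OVX minus control was 0.33 ± 0.17 (adjusted p = 0.14). The coding probe of Htr2c gave 0.04 ± 0.16 for the same difference (adjusted p = 0.86), with an interval from -0.28 to 0.37. The choroid plexus gene Ttr was well above background on 17 of 24 mPFC arrays, with signals from 2.7 to 1600, and the mean of the 3 detected choroid plexus markers correlated with Htr2c at r = 0.0973 over 24 arrays (permutation p = 0.639, adjusted p = 0.827 over 117 pairs; Spearman's rho = 0.0878 with p = 0.666; r = 0.0909 without the 2 farthest arrays). Htr2a, the cortical target of psychedelic drugs, was lowest at 0.13, median 0.18 and highest 0.87 in control mice and -0.03, 0.04 and 0.58 in OVX mice. Of the 6 OVX mice, 5 were below all controls, and OVX minus control was -0.22 ± 0.15 (adjusted p = 0.26).

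Among the Gs-coupled receptors, Htr4, which raises cyclic AMP in pyramidal neurons, moved furthest in size. Its level was lowest at -1.92, median -1.14 and highest -0.88 in control mice and -2.21, -1.33 and -0.90 in CUMS mice. It was -1.34, -0.86 and -0.60 in OVX mice and -2.49, -1.46 and -1.02 in OVX+CUMS mice, so that OVX mice were the highest group and OVX+CUMS mice the lowest. The CUMS effect was -0.39 ± 0.17 (adjusted p = 0.16) and the interaction -0.55 ± 0.33 (adjusted p = 0.32), and neither passed the adjustment over all probes. Htr7 was lowest at -0.53, median -0.29 and highest 0.68 in control mice and had a group mean of -0.42 in CUMS mice. Its interaction was 0.47 ± 0.24 (adjusted p = 0.24). The coding probe of Htr6 had group means between -3.09 and -2.96, and its CUMS effect was -0.12 ± 0.08 (adjusted p = 0.40).

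**Figure D3:**
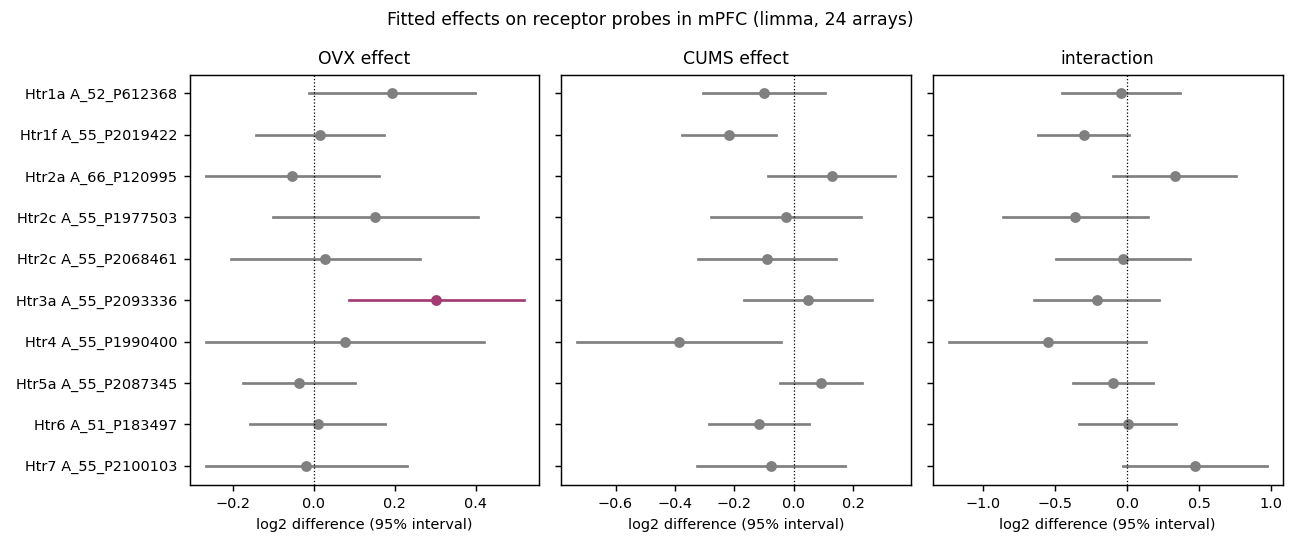
Fitted OVX effect, CUMS effect and their interaction for the 10 receptor probes detected in mPFC, as log2 differences with 95% intervals from limma over 24 arrays; the colour marks an adjusted p under 0.05. Htr3a, at 0.30 for OVX, is the coloured point, and the CUMS intervals of Htr1f (-0.38 to -0.06) and Htr4 (-0.73 to -0.04) lie below 0 without passing the adjustment.

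Slide 2 held CUMS and OVX mice side by side and so allowed a comparison that the slide could not set. For Htr1f the 4 CUMS mice were at -2.03, -1.90, -2.11 and -1.87 and the 4 OVX mice at -1.66, -1.71, -1.80 and -1.78, without overlap. The difference was -0.24 ± 0.07 (limma adjusted p = 0.15; exact permutation p = 0.0286, the smallest that 4 against 4 allow). The coding probe of Htr6 did not overlap either, with means of -3.06 in CUMS and -2.87 in OVX mice and a difference of -0.19 ± 0.06 (adjusted p = 0.18). Of all detected probes 11% did not overlap in this comparison, and 0.0423%, none of them a receptor, were called in limma.

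Receptor levels varied together from mouse to mouse within groups. Each value was taken as its deviation from its own group mean. All 36 pairs among the 9 leading mPFC probes were correlated over 24 arrays, with permutations within groups. For Pearson's r 7 pairs had an adjusted permutation p under 0.05, and for Spearman's rho 8 had. No share over pairs of other detected probes is given beside these counts, so they are not read as a trait of the receptors. Htr2c and Htr7 moved in opposite directions, with r = -0.886 (permutation p = 1e-05, the smallest 100000 permutations can give; adjusted p = 0.00036) and rho = -0.85 (p = 4e-05). Leaving out the 2 arrays farthest from the median of Htr2c gave r = -0.832. Control replicate 1 had the lowest Htr2c of all arrays, 1.32, and the highest Htr7, 0.68. Within control, CUMS, OVX and OVX+CUMS mice r was -0.974, -0.826, -0.687 and -0.86, and within slides 1, 2 and 3 it was -0.946, -0.6 and -0.866 over 8 arrays each.

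The difference between Htr2c and Htr7 on the same array is free of any scaling between arrays. That log2 difference ran from 0.65 to 2.86 in control mice, from 1.72 to 3.13 in CUMS, from 2.19 to 3.01 in OVX and from 1.56 to 2.93 in OVX+CUMS mice, so its spread inside a group exceeded any distance between group medians. When arrays were instead shifted by their spike-in signals, which adds 1 amount to every probe of an array, the correlation of Htr2c and Htr7 was 0.0711. After quantile normalization it was -0.894.

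Htr2a went with Htr7 (r = 0.701, permutation p = 0.00113, adjusted p = 0.0102; rho = 0.797, p = 0.00012; r = 0.65 without the 2 farthest arrays) and against Htr2c (r = -0.759, p = 0.00017, adjusted p = 0.00306; rho = -0.828, p = 2e-05; r = -0.717 without the 2 farthest). Htr1a went with Htr2c (r = 0.681, permutation p = 0.00047, adjusted p = 0.00564; rho = 0.663, p = 0.00081; r = 0.58 without the 2 farthest). Under the spike-in shift the Htr2a and Htr2c relation changed sign, to 0.188. That of Htr2a and Htr7 was then 0.83 and that of Htr1a and Htr2c 0.875. Within slides 1, 2 and 3 the Htr2a and Htr2c relation was -0.782, -0.537 and -0.64. That of Htr2a and Htr7 was 0.719, 0.627 and 0.47, and that of Htr1a and Htr2c was 0.602, 0.753 and 0.974. Within OVX mice Htr2a and Htr2c gave r = -0.0516, so within OVX mice alone the relation was not seen. These pairs share the array, the dissected piece and the scaling.

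Cell-type marker lists moved with the same deviations. The mean level of 9 oligodendrocyte markers fell as Htr2c rose (r = -0.801, permutation p = 1e-05, the smallest possible, adjusted p = 0.00117 over 117 receptor and list pairs; rho = -0.777 with p = 1e-05; r = -0.707 without the 2 farthest arrays) and rose with Htr7 (r = 0.737, permutation p = 0.00017, adjusted p = 0.00663; rho = 0.631, p = 6e-04; r = 0.623 without the 2 farthest). The 10 detected markers of upper layer pyramidal neurons went with Htr2c (r = 0.664, permutation p = 0.00031, adjusted p = 0.00907; rho = 0.629, p = 0.00113; r = 0.598 without the 2 farthest). Htr1f went with the 13 detected markers of striatal projection neurons (r = 0.812, permutation p = 7e-05, adjusted p = 0.00409; rho = 0.755, p = 0.00038; r = 0.731 without the 2 farthest). Of the 117 pairs 8 had an adjusted p under 0.05 for Pearson's r. The rest of these had an adjusted permutation p of 0.038 each. They were Htr2c against the Pvalb and Sst interneuron markers (r = -0.59) and Htr1a with the upper layer markers (r = 0.678). Htr2a (r = 0.614) and Htr7 (r = 0.596) went with the general neuron markers. Htr2c went against those neuron markers (r = -0.582, adjusted permutation p = 0.0702). For Spearman's rho the adjusted p of these pairs ran from 0.0675 to 0.0916. No share over other probes is given beside the count of marker list pairs. The marker list correlations are given under the percentile shift alone. How much of the receptor values these cells account for was not tested.

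Genes whose mPFC deviations were most like those of a receptor were listed by Pearson's r over the 24 arrays, as a description among 18382 candidate genes. For Htr2c they were Rgs13 (r = 0.971), Figf, now Vegfd (0.957), and Mcm6 (0.956). For Htr7 they were D0H4S114, now Nrep (0.959), Cd34 (0.942) and Mmel1 (0.941). For Htr4 they were Crym (0.898), Psmd6 (0.898) and Mthfd2l (0.896), and for Htr2a Dkk3 (0.87), Car10 (0.847) and Rgs4 (0.827), a regulator of G protein signalling. Htr1a was closest to Ttc9c (0.866), Htr6 to Sec14l1 (0.851), Htr5a to Pde4dip (0.848) and Htr1f to Ptpru (0.818). Htr3a was closest to Zfp429 (0.799).

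**Figure D4:**
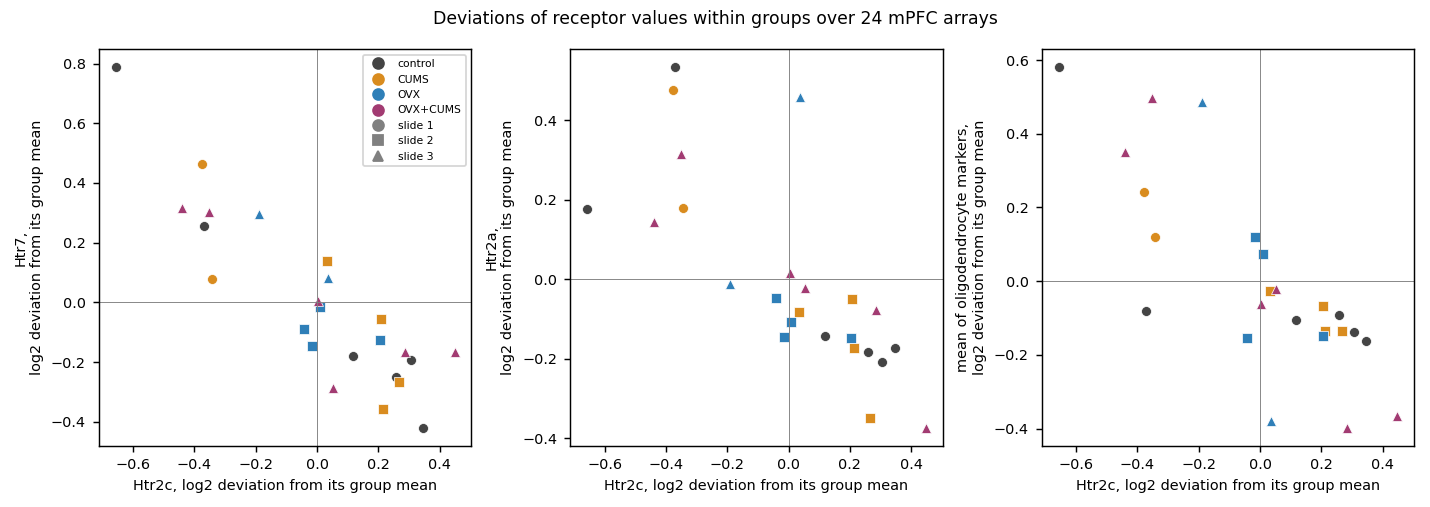
Log2 deviation from the group mean over 24 mPFC arrays, for Htr7, Htr2a and the mean of 9 oligodendrocyte markers (vertical axes) against Htr2c (horizontal axes), 1 point per mouse, colour for the group and symbol for the slide. Points fall from upper left to lower right in all 3 panels (r = -0.886, -0.759 and -0.801), and arrays of several groups and slides stand at both ends.

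In blood, both detected receptor probes stood higher in CUMS mice. Unless the coding probe is named, Htr6 in blood means the second probe, A_55_P2028350. Whether that probe reads the receptor mRNA was not tested. Htr6 by its second probe was lowest at -0.69, median -0.60 and highest -0.29 in control mice and -0.41, 0.12 and 0.42 in CUMS mice. In OVX mice it was -0.97, -0.63 and -0.25, and in OVX+CUMS mice -1.35, -0.31 and -0.03. Of the 6 CUMS mice 5 were above all controls. CUMS minus control was 0.60 ± 0.18 (limma adjusted p = 0.020; exact permutation p = 0.00649), and the CUMS effect over mice with and without ovaries was 0.40 ± 0.13 (adjusted p = 0.017). The coding Htr6 probe did not meet the detection rule in blood. Fitted without that rule, it had a CUMS effect of 0.12 ± 0.19 (adjusted p = 0.66) and a CUMS minus control difference of 0.43 ± 0.26 (adjusted p = 0.27).

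For the CUMS effect in blood 1 of 2 receptor probes was called, where 48.5% of all 20767 detected probes were called. OVX gave -0.30 ± 0.13 for Htr6 (adjusted p = 0.053), with 55.1% of all probes called. The blood arrays of CUMS mice were dimmer, with a 75th percentile signal of 86.3 ± 19.9 (SD, n = 6) against 110 ± 17.9 in control, 144 ± 29.8 in OVX and 126 ± 14.3 in OVX+CUMS mice, and this percentile was subtracted from every probe on the log2 scale. Processed signals of Htr6 before the shift were 65.8 to 81.9 in control 66.1 to 119 in CUMS, 61.7 to 111 in OVX and 47.4 to 119 in OVX+CUMS mice, with means of 74.9, 89.5, 92.9 and 95.8, so that unshifted signals were not higher in CUMS than in OVX mice. With the spike-in shift the Htr6 CUMS effect was 0.22 (adjusted p = 0.29), while the median of all blood probes moved from -0.03 to -0.21. The part of array brightness in the call was not tested. The summed level of 10 blood cell markers, of which 2 were called higher and 1 lower for CUMS, ran from 13.54 to 14.18 in control, from 13.78 to 14.67 in CUMS, from 13.12 to 13.66 in OVX and from 13.32 to 13.76 in OVX+CUMS mice as a log2 sum, and their part in the result was not tested. The interaction, for which 1.42% of all probes were called, was -0.40 ± 0.26 for Htr6 (adjusted p = 0.46).

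With slide as a fixed block the Htr6 CUMS effect was 0.46 (adjusted p = 0.046), while CUMS minus control was 0.55 and lost its call (adjusted p = 0.14). The CUMS minus control call was also lost without control replicate 1, CUMS replicate 2 or CUMS replicate 5, with adjusted p up to 0.052, and without a detection filter (adjusted p = 0.056). Over all 35 alternative settings that Htr6 difference ran from 0.33 to 0.69. It was called in limma in 28 of them, with adjusted p up to 0.25. Within slide 2 the 4 CUMS mice were at 0.24, -0.00023, 0.28 and -0.18 and the 4 OVX mice at -0.25, -0.41, -0.57 and -0.97, without overlap. That difference was 0.63 ± 0.18 (limma adjusted p = 0.019; exact permutation p = 0.0286, the smallest possible), in a comparison where 52.2% of all blood probes were called and 41.6% did not overlap. It was 0.57 (adjusted p = 0.054) without CUMS replicate 5 and 0.41 (adjusted p = 0.17) with the spike-in shift.

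Htr2c in blood was lowest at -2.03, median -1.48 and highest -1.18 in control mice and -1.48, -0.47 and 0.18 in CUMS mice. It was -1.80, -1.29 and -0.51 in OVX and -2.59, -1.05 and -0.55 in OVX+CUMS mice. Before the shift its mean processed signal was 37.7 in control, 62.6 in CUMS, 61.1 in OVX and 58.6 in OVX+CUMS mice. The part of array brightness in the Htr2c values was not tested. Of the 6 CUMS mice 5 were above all controls, and both CUMS mice of slide 1 were lower than the 4 of slide 2. CUMS minus control was 0.97 ± 0.30 (limma adjusted p = 0.020; exact permutation p = 0.00866), in a comparison that called 29.7% of all probes. That call was lost with slide as a fixed block (0.29, adjusted p = 0.55), with the spike-in shift (0.70, adjusted p = 0.12), without a detection filter (0.97, adjusted p = 0.053) and without CUMS replicate 5 (0.82, adjusted p = 0.060). The CUMS effect was 0.50 ± 0.21 with an adjusted p of 0.051, and 0.64 (adjusted p = 0.0066) without OVX+CUMS replicate 2, the lowest array. With slide as a fixed block it was 0.35 (adjusted p = 0.26), and within slide 2 CUMS minus OVX was 0.84 ± 0.27 (limma adjusted p = 0.027; exact permutation p = 0.0571). The slide 2 call was kept in 4 of 8 fits that left out 1 array and was lost without CUMS replicate 3 or 5 or OVX replicate 2 or 4, with differences from 0.61 to 1.02 and adjusted p up to 0.076. In mPFC the same probe had a CUMS effect of -0.03, and the difference of the CUMS effect between the tissues, blood minus mPFC, fitted with the mouse as a random block, was 0.53 ± 0.24 (adjusted p = 0.060 over 17544 probes detected in both). A difference between the tissues was therefore not shown at the threshold.

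**Figure D5:**
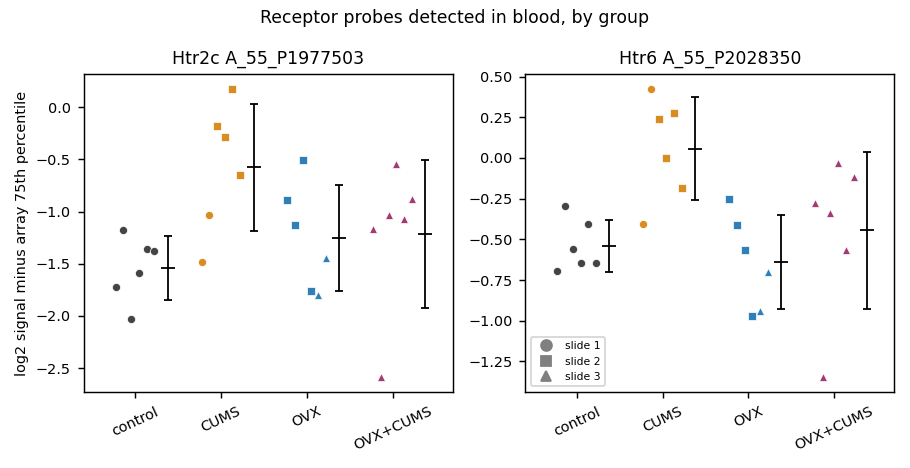
Normalized level (log2 signal minus the array's 75th percentile) of the 2 receptor probes detected in blood, 1 point per mouse with the slide as the symbol, and the group mean ± SD of 6 mice. For Htr2c the CUMS mice of slide 2 have the highest mean, and their lowest array (-0.65) lies under the highest OVX array (-0.51). For Htr6 5 of 6 CUMS mice lie above all control mice.

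The genes around the receptors were followed from lists. In mPFC, Tph2, the enzyme that starts serotonin synthesis in neurons, was well above background on 2 of 24 arrays and Slc6a4, the serotonin transporter, on 1. Tph1, its counterpart outside the brain, reached that level on 23 arrays. Slc18a2, the vesicle transporter, was detected and had an OVX effect of -0.15 ± 0.06 (adjusted p = 0.080). Maoa and Maob, which break serotonin down, were detected, with OVX effects of 0.04 ± 0.05 (adjusted p = 0.56) and -0.02 ± 0.05 (adjusted p = 0.85) and CUMS effects of -0.12 ± 0.05 and 0.08 ± 0.05 (adjusted p = 0.18 and 0.35). Of 7 detected genes of transport and breakdown 1 was called for OVX, under the 30.9% of all probes: Aanat, the pineal enzyme that acetylates serotonin, which fell by 0.30 ± 0.05 (adjusted p = 0.00021). Of 6 detected genes of synthesis Spr, a tetrahydrobiopterin enzyme, rose by 0.12 ± 0.04 (adjusted p = 0.020) and Fev, a serotonin neuron transcription factor, fell by 0.38 ± 0.13 (adjusted p = 0.033) with OVX. Gch1, the first enzyme of tetrahydrobiopterin synthesis, rose by 0.41 ± 0.10 with CUMS (adjusted p = 0.028), as 1 of 6 genes where 4.19% of all probes were called. Of 4 other receptor genes, Htr1d, Htr2b, Htr3b and Htr5b, Htr5b was detected in mPFC and was not called.

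Among the G proteins and partners that receptors act through, the OVX calls were all higher, and all were lost with the spike-in shift. Of 42 detected genes 12 were higher and 0 lower for the OVX effect in limma, where 19.1% of all probes were called higher and 11.7% lower, and the median over the list was 0.066 beside 0.044 over all probes. For OVX+CUMS minus control 14 were higher and 0 lower, with 20.4% of all probes higher and 13% lower. The largest OVX effects were those of Adcy9, an adenylyl cyclase (0.21 ± 0.05, adjusted p = 0.0019), Gnaz (0.19 ± 0.05, 0.010) and Gnai3 (0.18 ± 0.05, 0.0050), both inhibitory G protein subunits, Pde4a, which degrades cyclic AMP (0.17 ± 0.04, 0.0042), Arrb2, a beta-arrestin (0.17 ± 0.05, 0.0088), and Gnas, the Gs subunit (0.15 ± 0.04, 0.0030). S100a10, known to bind Htr1b and Htr4, was at 0.04 ± 0.08 (adjusted p = 0.72). None of the 42 was called for CUMS, where the list's median was 0.042 beside 0.011. With the spike-in shift 0 of the 42 were called higher and 0 lower for OVX, the list's median was -0.064 and the median over all mPFC probes moved from 0.044 to -0.086. With slide as a fixed block no mPFC or blood probe at all was called for OVX, which touches every OVX call of these lists. Under the spike-in shift Aanat (-0.43, adjusted p = 0.048) and Fev (-0.51, adjusted p = 0.019) kept their OVX calls, while Spr (-0.0062, adjusted p = 1.00) and the CUMS call of Gch1 (0.29, adjusted p = 0.53) were lost.

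In blood, Fev and Gch1 were called in the same direction as in mPFC. Of all blood probes 55.1% were called for OVX and 48.5% for CUMS, so a call in blood says little of a single gene. Fev was dim in mPFC, with signals from 28.7 to 78.1. Fev fell by 0.65 ± 0.13 with OVX (adjusted p = 0.00048), and Gch1 rose by 0.35 ± 0.12 with CUMS (adjusted p = 0.022). Of the other tetrahydrobiopterin enzymes, Qdpr fell by 0.52 ± 0.10 with CUMS (adjusted p = 0.00097), and Pts rose by 0.28 ± 0.08 with OVX (adjusted p = 0.0077) and fell by 0.27 ± 0.08 with CUMS (adjusted p = 0.011). Under the spike-in shift Fev (-0.30, adjusted p = 0.099) and Gch1 (0.16, adjusted p = 0.36) lost their blood calls. Of the 5 detected synthesis genes 2 were then higher and 0 lower for OVX. For CUMS 0 were higher and 1 lower, so the falls of Qdpr and Pts did not both keep their calls. Slc6a4, which platelets carry, had a mean signal of 544 on blood arrays, and Slc18a2 had 141. Slc6a4 fell by 0.44 ± 0.15 with OVX (adjusted p = 0.015) and had a CUMS effect of 0.02 ± 0.15 (adjusted p = 0.90). Slc18a2 was at 0.12 ± 0.18 for OVX (adjusted p = 0.56) and 0.16 ± 0.18 for CUMS (adjusted p = 0.46). Tph1 was well above background on 23 of 24 blood arrays and so stayed outside the test. Of 25 detected partners 6 were higher and 4 lower with OVX, where 27.4% of all probes were higher and 27.7% lower; with the spike-in shift 12 were higher and 1 lower. Rgs7, which speeds the shut-off of inhibitory G proteins, fell by 1.07 ± 0.21 on average over both strata (adjusted p = 0.00046). Its interaction was 1.72 ± 0.42 (limma adjusted p = 0.046, close to the threshold), so that in this fit, which leaves out slide, the fall was larger in unstressed mice. No other scaling and no slide block is given for that interaction. Gnas fell by 0.45 ± 0.08 (adjusted p = 0.00021), while Itpr1, the calcium channel that Gq signalling opens, rose by 0.44 ± 0.11 (adjusted p = 0.0033). With CUMS 1 partner was higher and 6 were lower, where 19.1% of all probes were higher and 29.4% lower; with the spike-in shift 0 were higher and 2 lower. Pde4b, which degrades cyclic AMP, fell by 0.47 ± 0.09 (adjusted p = 0.0011), and Gna11, a Gq subunit, fell by 0.42 ± 0.12 (adjusted p = 0.0083). With the spike-in shift the OVX effects were -0.086 for Slc6a4 (adjusted p = 0.73), -0.10 for Gnas (adjusted p = 0.51) and -0.72 for Rgs7 (adjusted p = 0.0064), and the median over all blood probes moved from 0.044 to 0.39.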

How the data were processed

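Per the file headers, Feature Extraction 10.7.3.1 gave the authors each spot's intensity in arbitrary units, with the background already subtracted. The deposited log2 values of the series are the same intensities shifted by each array's 75th percentile, and 100% of 55249 probes with 1 spot lay within 0.001 log2 of the values computed here after removing 1 constant from each array. Each log2 processed signal was shifted by its array's 75th percentile, which was 572 to 689 in mPFC and 54.9 to 192 in blood. Arrays carry no read depth, so the number of arrays and the signal over background limit precision. A probe was detected if positive, significant and well above background on all 24 arrays of a tissue and over 50 on at least 2, which left 28358 probes in mPFC and 20767 in blood. limma 3.58.1 in R 4.3.3 fitted group means, with Benjamini-Hochberg adjustment over all detected probes and calls at 0.05; the OVX effect averages OVX minus control and OVX+CUMS minus CUMS, and the CUMS effect likewise. All p-values are two-sided. The fits were tested on simulated data. The members and gene lists were chosen with earlier results of these data known. All member probes were named, with the brightest mPFC probe of a gene leading. For the lists up to 6 called probes of largest change could be named, with Tph1, Tph2, Slc6a4, Slc18a2, Maoa, Maob and S100a10 always. Likeness left out unnamed and RIKEN or Gm-type names. Mouse numbers do not pair mice across groups. Alternatives were other backgrounds, scalings, filters, slide or replicate blocks and leaving out each array.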

Additional observations from a re-analysis of the deposited data

Results flagged for a closer look

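In groups of 6 arrays, an array was singled out where its gap to the nearest other array took more of the group's range than Dixon's critical value for 6 samples allows at the 95% level. This held in 6 of 48 groups, 12.5%, where chance gives about 1 in 20. In mPFC these were Htr1a in control replicate 1 (-2.6989), Htr2a in OVX replicate 6 (0.58094), the Htr2c probe A_55_P2068461 in CUMS replicate 1 (-4.6704), and Htr3a in control replicate 4 (-1.23) and OVX replicate 3 (-0.1438). In blood it was Htr2c in OVX+CUMS replicate 2 (-2.5891). All are normalized log2 levels. The causes were not tested.

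Probes outside the comparisons were bright on single arrays, in control mice as well as in treated ones: in blood, Htr3a reached 79.04, Htr1b 26.12 and Htr1a 16.11 on a control array, each well above background there. The following arrays passed every control array of their own probe. The Htr4 probe A_55_P1990400 had a processed signal of 15.91 in blood of CUMS replicate 3 and 33.32 in OVX+CUMS replicate 4, with a highest control signal of 2.978. The second Htr7 probe, A_55_P2177309, had 43.88 in blood of OVX+CUMS replicate 3 against at most 5.098 in controls, and 99.89 in mPFC of CUMS replicate 1 against at most 5.865. No other array of these groups was well above background for these probes.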

How the results depend on the processing

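Counts below are receptor probes called. For the mPFC OVX effect and OVX minus control, 1 became 0 with the percentile over detected probes, the spike-in shift, no detection filter, detection on all 48 arrays, slide as a fixed or random block and the replicate block. For OVX+CUMS minus control 0 became 1 with normexp background (Htr3a, 0.42, adjusted p = 0.011). In blood the CUMS effect went from 1 to 2 with normexp and to 0 with the spike-in shift, and the OVX effect from 0 to 2 without a detection filter, through the dim probes Htr2c A_55_P2158921 (-0.55, adjusted p = 0.015) and Htr5a (-0.65, adjusted p = 0.037). Asking for detection on all 48 arrays cut the detected probes from 10 to 1 in mPFC and from 2 to 1 in blood, since it removes probes that only 1 tissue shows. The causes of the other changes were not tested.

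Leaving out each array in turn gave 0 to 1 calls for the mPFC OVX effect, CUMS effect, OVX+CUMS minus control and OVX minus control, 0 for the interaction, CUMS minus control and slide 2, and 10 to 11 detected probes. Htr3a was called for OVX+CUMS minus control without OVX replicate 3 (0.35, adjusted p = 0.011) or OVX+CUMS replicate 3 (0.44, 0.023), and Htr1f without OVX+CUMS replicate 1 (-0.29, 0.032). In blood the ranges were 0 to 1 for OVX, 1 to 2 for CUMS and 0 for the interaction, with 2 probes detected throughout. Htr6 was called for OVX without CUMS replicate 1 or 6, OVX replicate 1 or 2, or OVX+CUMS replicate 4 or 6, and Htr2c for CUMS without control replicate 2, CUMS replicate 1 or 2, OVX replicate 1 or 3, or OVX+CUMS replicate 2. Over all alternatives, 2101 of 2267 single-probe values in mPFC and 416 of 459 in blood kept direction and side of the threshold, and no called value reversed.

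Replicate numbers only name mice. Same-numbered mPFC arrays had a median correlation of 0.0384 (-0.23 to 0.391), and 7 of 24 correlated best with their own number. With the replicate block the Htr3a OVX effect was 0.30 (adjusted p = 0.053) and 0 receptor probes were called in mPFC; the blood Htr6 CUMS effect was 0.40 (adjusted p = 0.035). Probes near background, such as Htr1b in mPFC, were outside the test.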
